A study of Mus musculus with 14 samples.

Results

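GATA1 and GATA2 are zinc finger transcription factors that bind GATA motifs in DNA, and 6 regulators known to work with them in red cell precursors were measured beside them in mouse mast cells. The 8 genes were Gata1, Gata2, Zfpm1, Tal1, Lyl1, Lmo2, Klf1 and Nfe2. They were found by gene name on the array, where 9 probes carried 1 of these names, out of 41174 probes. All 9 probes passed the filter on dim probes, and the 8 genes were tested among 16012 genes. Klf1 passed through 3 arrays only, which are named with its values.

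The cells were bone marrow-derived mast cells (BMMCs), a culture of immature mast cells raised in medium with IL-3 over 4 to 6 weeks. For coculture they spent 96 h on a layer of Swiss 3T3 cells, a mouse fibroblast line, with 100 ng/ml of stem cell factor, the ligand of the Kit receptor, after which the cells that did not adhere again following trypsin were harvested. The design asked what coculture does to BMMCs, and what loss of Pla2g3, which encodes group III secreted phospholipase A2, does before and after it. The 14 single-colour arrays comprised 3 of Pla2g3-/- cocultured cells, 4 of Pla2g3+/+ cocultured cells, 4 of Pla2g3-/- BMMCs and 3 of Pla2g3+/+ BMMCs, called knockout and wild-type here after their labels. Both genotypes carried the same strain label, which names C57BL/6 together with another mouse strain. No label states that replicates are separate animals or cultures, and the p-values therefore reflect only the spread of these arrays, which may be technical. The labels give over 97% of BMMCs and over 99% of the cocultured harvest as positive for Kit and FcεRIα.

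GATA2 acts early, in stem and progenitor cells and in mast cells, and GATA1 acts later, in erythroid, megakaryocytic, eosinophil and mast cells. In erythroid cells GATA1 takes the place of GATA2 at many sites, often with FOG1, the product of Zfpm1, which binds the zinc finger of GATA1. GATA1 also joins a complex of TAL1 (or its close relative LYL1), an E protein, LMO2 and LDB1, in which TAL1 contacts E-boxes and LMO2 bridges the parts. KLF1 binds CACCC elements of globin genes, and NFE2 pairs with a small MAF protein at NF-E2 sites. In mast cells GATA factors are known to act on genes for tryptases, carboxypeptidase A3, histidine decarboxylase and the IgE receptor.

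Each level is a log2 signal from which the array's own 75th percentile was subtracted, and each probe is compared only with itself. The 75th percentile lay between 69.4 and 176 units of signal, and 17544 to 23018 probes per array, 42.6% to 55.9% of all, were well above background. The arrays stood on 4 slides, and 2 arrays of slide 4, which also had a scan date of its own, stood apart. After centring 15809 genes on the mean of the 7 cocultured arrays, wild-type cocultured 3 correlated with knockout cocultured 1 and 2 (r = 0.42 to 0.60) and negatively with the other wild-type cocultured arrays (r = -0.59 to -0.57). Knockout cocultured 3 correlated negatively with knockout cocultured 1 and 2 (r = -0.56 to -0.53), and at -0.03 to 0.53 with the wild-type cocultured arrays. Many results below are therefore also given without these 2 arrays, which leaves 2 knockout and 3 wild-type cocultured arrays. No such change is given for Gata2 or for single genes of the lists. The Pla2g3 probe averaged -1.57 on knockout BMMC arrays and -3.80 on wild-type BMMC arrays, and -2.32 and -3.48 on knockout and wild-type cocultured arrays. It was well above background on every knockout array, but on only 1 of 3 wild-type BMMC and 2 of 4 wild-type cocultured arrays. The wild-type averages therefore rest partly on signal near background. Which part of Pla2g3 was deleted is not given in the sources used here, so this probe does not check the labels, and directions between genotypes rest on the labels alone.

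Mast cell markers were present throughout, with 11 or 12 of 12 markers well above background on every array. Their summed linear level was 1627 to 2932 on knockout cocultured, 1753 to 2392 on wild-type cocultured, 1476 to 1968 on knockout BMMC and 2022 to 2472 on wild-type BMMC arrays. Fibroblast markers rose with coculture, 10 of 19 in knockout cells and 15 of 19 in wild-type cells, where 7.78% and 6.02% of all genes rose. Their sum over 19 genes was 14.9 to 62.2 on knockout cocultured arrays and 16.6 to 426 on wild-type cocultured arrays, against 0.577 to 2.44 on knockout and 0.710 to 1.06 on wild-type BMMC arrays. Of the erythroid markers, 10 of 26 were tested. Of these 10, 8 or 9 were well above background on each knockout cocultured, knockout BMMC and wild-type BMMC array. On the wild-type cocultured arrays 7 to 9 were. Alas2, the erythroid enzyme of haem synthesis, was well above background on 0 arrays. Of 10 macrophage markers tested, 2 rose in knockout cells, and 2 rose and 1 fell in wild-type cells, and of 5 basophil markers 1 rose in each genotype. Over all genes, 14.3% were called in either direction in knockout cells and 12.9% in wild-type cells. The part of these markers in the results was not tested.

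Promoter windows from RefSeq (GRCm38.p6), running from 250 bases before to 50 after an annotated start, were available for 6 of the 8 genes, in 8 windows. The windows of Gata1, Tal1 and Lyl1 are shown because these factors act at GATA elements and E-boxes, and because their RNA fell after coculture in at least 1 genotype. Both strands were searched for GATA elements (AGATAA or AGATAG, and the same with a first T, TGATAA or TGATAG), E-boxes (CANNTG), CACCC-type elements (CCACNCCC) and NF-E2-type elements (TGANTCA), and capitals mark the matches. No 2 marked matches overlap. The Gata1 window lies at chrX:7967861-7968160 on the minus strand, the Tal1 windows at chr4:115056176-115056475 and chr4:115057561-115057860 on the plus strand, and the Lyl1 window at chr8:84701207-84701506 on the plus strand.
Gata1: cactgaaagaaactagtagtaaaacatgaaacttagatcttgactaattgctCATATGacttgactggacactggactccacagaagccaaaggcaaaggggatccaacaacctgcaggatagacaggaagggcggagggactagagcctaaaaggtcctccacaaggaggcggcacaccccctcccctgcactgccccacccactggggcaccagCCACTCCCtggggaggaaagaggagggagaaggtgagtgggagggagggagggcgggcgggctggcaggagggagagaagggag
Tal1, first start: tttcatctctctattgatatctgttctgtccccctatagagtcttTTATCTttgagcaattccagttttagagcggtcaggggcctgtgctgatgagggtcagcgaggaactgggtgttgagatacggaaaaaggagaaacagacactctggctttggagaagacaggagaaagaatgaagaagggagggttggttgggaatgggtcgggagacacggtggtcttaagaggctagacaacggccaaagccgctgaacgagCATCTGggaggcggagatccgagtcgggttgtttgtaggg
Tal1, second start: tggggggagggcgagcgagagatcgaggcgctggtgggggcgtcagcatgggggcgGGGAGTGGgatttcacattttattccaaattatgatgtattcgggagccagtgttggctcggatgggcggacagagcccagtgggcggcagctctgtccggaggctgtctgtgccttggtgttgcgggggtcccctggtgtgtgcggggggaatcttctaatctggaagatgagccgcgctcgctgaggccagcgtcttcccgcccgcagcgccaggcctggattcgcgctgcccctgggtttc
Lyl1: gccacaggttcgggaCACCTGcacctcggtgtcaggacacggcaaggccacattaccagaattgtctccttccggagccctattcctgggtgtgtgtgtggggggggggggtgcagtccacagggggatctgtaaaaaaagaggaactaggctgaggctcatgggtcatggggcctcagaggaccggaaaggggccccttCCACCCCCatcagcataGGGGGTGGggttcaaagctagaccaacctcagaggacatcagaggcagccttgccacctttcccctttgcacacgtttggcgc

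The Gata1 window holds an E-box, CATATG, 198 bases before the start and a CACCC-type element, CCACTCCC, 34 bases before it. The first Tal1 window holds a GATA element, read as TTATCT on the gene's strand, 205 bases before the start, and an E-box, CATCTG, 10 bases after it. Lyl1 has an E-box, CACCTG, 235 bases before its start and 2 CACCC-type elements, CCACCCCC and GGGGGTGG, 50 and 33 bases before it. Among the windows not shown, Klf1 holds a GATA element (TTATCA) 80 bases and an E-box (CAGATG) 59 bases before its start. Zfpm1 holds a CACCC-type element 74 bases before its start, and the second Gata2 window an E-box after its start. NF-E2-type elements were found in 0 of the 8 windows. Of all 32851 windows, 29.8% hold a GATA element, 72.3% an E-box, 17.6% a CACCC-type element and 7.81% an NF-E2-type element. A match describes letters in these windows, and the elements of these genes outside them were not searched.

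After coculture, 4 of the 8 genes fell in each genotype and 0 rose. Gata1, Lyl1 and Nfe2 fell in both knockout and wild-type cells, Tal1 passed the test in knockout cells only, and Klf1 in wild-type cells only, near background. Gata2, Zfpm1 and Lmo2 passed in neither. The test was limma's moderated test in 1 fit of the 4 groups, with Benjamini-Hochberg adjustment over 16012 genes and a call at an adjusted p under 0.05. The background for a fall was 6.5% of all genes in knockout cells and 6.87% in wild-type cells, and for a call in either direction 14.3% and 12.9%. The median change of the 8 genes was -0.86 in knockout cells, where it was 0.07 over all genes, and -1.33 in wild-type cells, where it was -0.06 over all genes. The wild-type count and the medians include Klf1, which was well above background on 0 wild-type arrays. The wild-type count and median therefore rest partly on background signal. These are bulk RNA values, in which fewer cells of a type and less RNA per cell cannot be told apart.

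**Figure D1:**
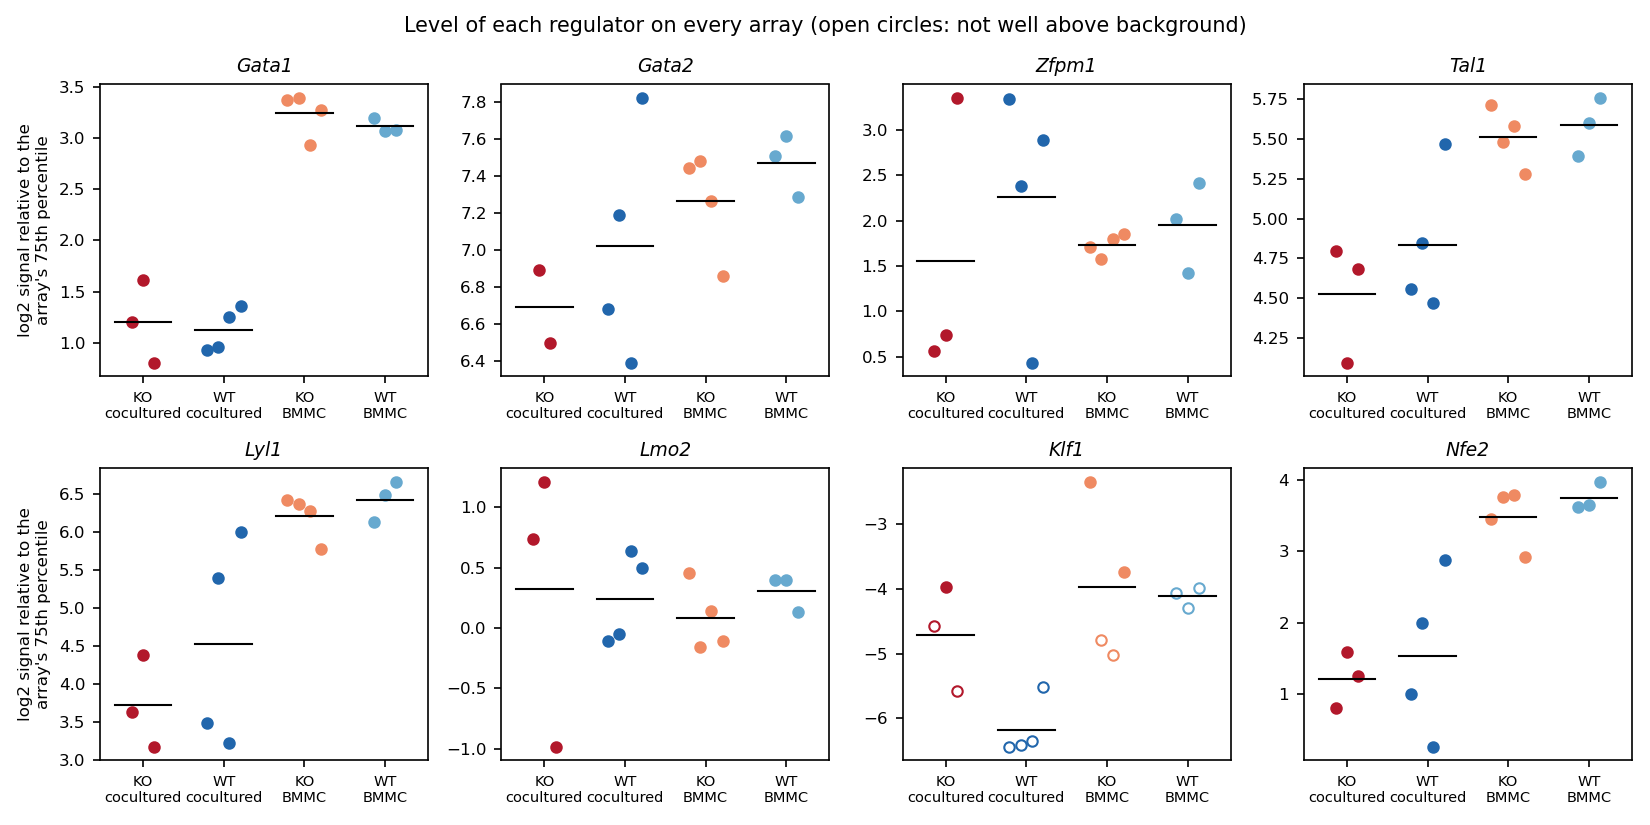
Level of each of the 8 regulators on every array (log2 signal relative to the array's 75th percentile, vertical axis), with knockout cocultured, wild-type cocultured, knockout BMMC and wild-type BMMC arrays from left to right. Each point is 1 array, bars are group means, and open points are not well above background. Gata1 lies between 0.80 and 1.61 on all cocultured arrays and between 2.93 and 3.40 on all BMMC arrays.

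Gata1, the factor of later mast cell and erythroid stages, had the smallest standard error of change among the 8 genes. Its level was 1.20, 1.61 and 0.80 on the knockout cocultured arrays and 0.93, 0.96, 1.26 and 1.36 on the wild-type cocultured arrays. It was 3.37, 3.40, 2.93 and 3.27 on the knockout BMMC arrays and 3.20, 3.07 and 3.08 on the wild-type BMMC arrays. Every cocultured array was thus below every BMMC array, with a gap wider than the range within either set. Gata1 averaged 1.21 ± 0.40 (SD, n = 3) in knockout cocultured cells, against 3.24 ± 0.21 (SD, n = 4) in knockout BMMCs. It averaged 1.13 ± 0.22 (SD, n = 4) in wild-type cocultured cells, against 3.12 ± 0.07 (SD, n = 3) in wild-type BMMCs. The fall was 4.11-fold in knockout cells (log2 change -2.04, SE 0.24, 95% interval -2.55 to -1.53, limma adjusted p = 0.000228). In wild-type cells it was 3.97-fold (log2 change -1.99, SE 0.24, 95% interval -2.50 to -1.48, limma adjusted p = 0.000191). With the slide 4 arrays left out, the changes were -1.84 in knockout cells (limma adjusted p = 0.00031) and -2.03 in wild-type cells (limma adjusted p = 7.78e-05).

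The Gata1 value rests on more spots than the others. Its probe, on the minus strand at chrX:7536849-7536908 (mm9), was printed 10 times on each array, and 7 to 10 of these spots were free of outlier flags. Their SD within an array was 0.03 to 0.09, far below the difference between groups. Within slides, cocultured minus BMMC was -2.17, -1.79 and -2.47 in knockout cells on slides 1, 2 and 4, and -2.14 and -1.92 in wild-type cells on slides 2 and 3. Each slide that held both states thus gave a lower Gata1 level after coculture. The summed fibroblast level of the cocultured arrays spanned 14.9 to 426, and Gata1 was 1.20 on the array with the lowest sum and 0.96 on that with the highest.

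Gata2, the factor of earlier stages, did not pass the test in either genotype. On the probe that stands for it, at chr6:88156835-88156894 (mm9), its level was 6.89 and 6.49 on knockout cocultured arrays 1 and 3, and the spot on array 2 was left out as an outlier. It was 6.68, 7.19, 6.39 and 7.82 on wild-type cocultured arrays. On BMMC arrays it was 7.44, 7.48, 7.26 and 6.86 in knockout cells and 7.51, 7.61 and 7.29 in wild-type cells. The groups overlapped in both genotypes, and wild-type cocultured 4 was the highest of the 13 arrays with a value. The log2 change was -0.57 (SE 0.37, 95% interval -1.38 to 0.24, limma adjusted p = 0.337) in knockout cells and -0.45 (SE 0.33, 95% interval -1.16 to 0.26, limma adjusted p = 0.436) in wild-type cells. Both intervals hold 0 and stop short of the Gata1 changes given above.

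The other Gata2 probe, at chr6:88156362-88156421 (mm9), had a value on all 14 arrays. It gave 5.82, 5.62 and 5.65 on knockout cocultured, 5.52, 6.11, 5.56 and 6.74 on wild-type cocultured, 6.24, 6.30, 6.09 and 6.02 on knockout BMMC and 6.37, 6.35 and 6.34 on wild-type BMMC arrays. Here the knockout cocultured arrays all lay below the knockout BMMC arrays, while the wild-type groups overlapped. Its log2 change was -0.46 in knockout cells (limma adjusted p = 0.291) and -0.37 in wild-type cells (limma adjusted p = 0.451), in a fit over 23584 probes. Both probes therefore gave small negative differences that did not pass.

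Zfpm1 encodes FOG1, which binds GATA factors rather than DNA, and its level was widely scattered after coculture. It was 0.56, 0.74 and 3.35 on knockout cocultured arrays and 3.33, 2.38, 0.44 and 2.88 on wild-type cocultured arrays. It was 1.71, 1.58, 1.80 and 1.85 on knockout BMMC arrays and 2.02, 1.43 and 2.41 on wild-type BMMC arrays. The cocultured arrays lay on either side of the BMMC range, with 3 below it, 3 above it and 1 inside. The log2 change was -0.18 (95% interval -1.70 to 1.33, limma adjusted p = 0.899) in knockout cells and 0.31 (95% interval -1.21 to 1.82, limma adjusted p = 0.846) in wild-type cells. The probe lies at chr8:124861053-124861112 (mm9).

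The Zfpm1 result turned on the 2 slide 4 arrays. Knockout cocultured 3 had the highest level of its group, and wild-type cocultured 3 the lowest of its own. Without these 2 arrays, Zfpm1 passed in opposite directions: its log2 change was -1.08 in knockout cells (limma adjusted p = 0.0216) and 0.91 in wild-type cells (limma adjusted p = 0.0414). The 4 cocultured arrays with the highest fibroblast sums, wild-type 2, 4 and 1 (426, 134 and 117) and knockout 3 (62.2), were also the 4 with the highest Zfpm1 levels. The 3 arrays with sums of 14.9 to 25.8 had Zfpm1 levels of 0.44 to 0.74. The part of fibroblast RNA in the Zfpm1 level was not tested.

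**Figure D2:**
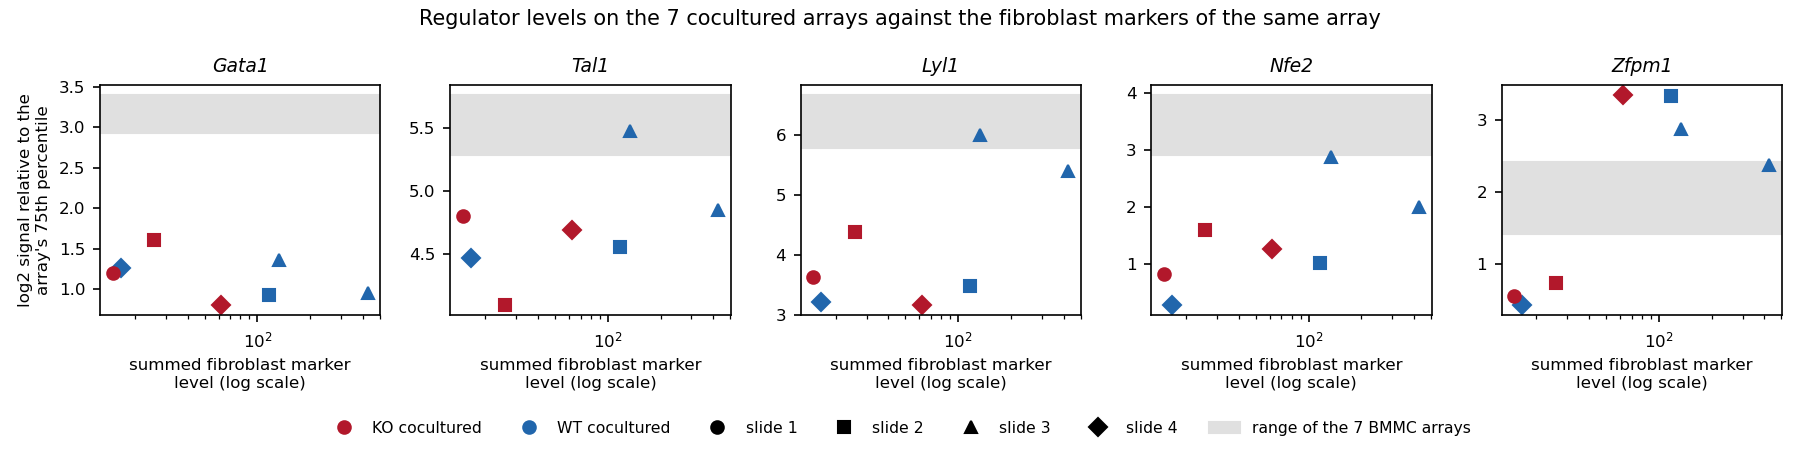
Level of 5 of the regulators (log2 signal relative to the array's 75th percentile) against the summed fibroblast marker level of the same array (log scale) for the 7 cocultured arrays, coloured by genotype label and shaped by slide, with the range of the 7 BMMC arrays in grey. Gata1 stays below the grey band at every fibroblast level, and Zfpm1 is 0.44 to 0.74 on the 3 arrays with the lowest sums and 2.38 to 3.35 on the other 4.

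Of the 2 helix-loop-helix genes, Lyl1 passed as lower in both genotypes and Tal1 in knockout cells only. LYL1 is a basic helix-loop-helix factor close to TAL1 in sequence, and its probe lies at chr8:87228531-87228590 (mm9). Lyl1 was at 3.63, 4.38 and 3.17 on knockout cocultured arrays and at 3.48, 5.40, 3.22 and 6.00 on wild-type cocultured arrays. It was at 6.43, 6.38, 6.28 and 5.78 on knockout BMMC arrays and at 6.13, 6.50 and 6.67 on wild-type BMMC arrays. In knockout cells the groups were well separated. In wild-type cells arrays 1 and 3 lay low, and arrays 2 and 4, both on slide 3, lay nearer to the wild-type BMMC range without reaching it.

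Lyl1 fell 5.61-fold in knockout cells (log2 change -2.49, SE 0.58, 95% interval -3.75 to -1.23, limma adjusted p = 0.0146). It fell 3.74-fold in wild-type cells (log2 change -1.90, SE 0.58, 95% interval -3.16 to -0.65, limma adjusted p = 0.0483). The wild-type call sits at the threshold. It was lost in 11 of the 14 fits that left out 1 array, where the log2 change ran from -2.40 to -1.47, and also without the slide 4 arrays (-1.47, limma adjusted p = 0.0693). Quantile normalization (limma adjusted p = 0.053), the authors' normalized values (0.279), no filter on dim probes (0.08), fitting only the groups compared (0.14) and the replicate block (0.0515) ended it as well. In knockout cells the value without the slide 4 arrays was -2.21 (limma adjusted p = 0.0139). Within slides, cocultured minus BMMC was -2.79, -2.0006 and -2.61 in knockout cells on slides 1, 2 and 4, and -3.01 and -0.97 in wild-type cells on slides 2 and 3. All 5 were negative, and the wild-type pair differed by slide.

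Tal1 encodes the helix-loop-helix factor needed to start blood formation, and its probe lies at chr4:114744223-114744283 (mm9). Its level was 4.80, 4.09 and 4.69 on knockout cocultured arrays and 4.56, 4.85, 4.47 and 5.47 on wild-type cocultured arrays. On BMMC arrays it was 5.71, 5.48, 5.58 and 5.28 in knockout cells and 5.40, 5.60 and 5.76 in wild-type cells. The knockout groups did not overlap, and in wild-type cells only array 4 of the cocultured group reached the BMMC range. Tal1 fell 1.98-fold in knockout cells (log2 change -0.99, SE 0.28, 95% interval -1.59 to -0.39, limma adjusted p = 0.033). The wild-type change of -0.75 did not pass (SE 0.28, 95% interval -1.35 to -0.15, limma adjusted p = 0.098).

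The Tal1 calls depended on the settings and on single arrays. The knockout call was lost with the replicate number as a block (-0.92, limma adjusted p = 0.107), with median scaling (-0.93, limma adjusted p = 0.0784), with no filter on dim probes (-0.99, limma adjusted p = 0.0838) and without knockout cocultured 2 (-0.77, limma adjusted p = 0.128), knockout cocultured 1 or any of knockout BMMC 1, 2 and 3. Without wild-type cocultured 4 the wild-type change passed at -0.96 (limma adjusted p = 0.0319). Leaving out slide 4, the changes were -1.07 in knockout cells (limma adjusted p = 0.0173) and -0.63 in wild-type cells (limma adjusted p = 0.122). The test of the difference between genotypes is given with the other genotype comparisons.

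Lmo2 encodes the LIM protein that bridges TAL1 and GATA factors, and its probe is placed at chr2:103816341-103821054 (mm9). Its level was 0.74, 1.21 and -0.99 on knockout cocultured arrays and -0.11, -0.05, 0.63 and 0.50 on wild-type cocultured arrays. It was 0.45, -0.15, 0.14 and -0.11 on knockout BMMC arrays and 0.40, 0.40 and 0.14 on wild-type BMMC arrays. The groups overlapped in both genotypes. The log2 change was 0.24 (95% interval -0.68 to 1.16, limma adjusted p = 0.764) in knockout cells and -0.07 (95% interval -0.99 to 0.85, limma adjusted p = 0.951) in wild-type cells. Knockout cocultured 3, of slide 4, was the lowest of all 14 arrays. Without it the knockout change was 0.89 (limma adjusted p = 0.0467), and without both slide 4 arrays it had an adjusted p of 0.0229 in limma.

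NFE2 is the blood-specific subunit of NF-E2, known for its role in platelet and globin gene expression. Its probe lies at chr15:103078838-103078897 (mm9) on the minus strand. Nfe2 was at 0.81, 1.60 and 1.25 on knockout cocultured arrays and at 1.003, 1.997, 0.27 and 2.88 on wild-type cocultured arrays. It was at 3.45, 3.76, 3.79 and 2.92 on knockout BMMC arrays and at 3.62, 3.65 and 3.97 on wild-type BMMC arrays. Neither genotype's groups overlapped, and wild-type cocultured 4 was again the highest cocultured array, as for Gata2, Tal1 and Lyl1.

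Nfe2 fell 4.79-fold in knockout cells (log2 change -2.26, SE 0.49, 95% interval -3.33 to -1.19, limma adjusted p = 0.0105). It fell 4.62-fold in wild-type cells (log2 change -2.21, SE 0.49, 95% interval -3.28 to -1.14, limma adjusted p = 0.011). Within slides, cocultured minus BMMC was -2.64, -2.16 and -1.66 in knockout cells on slides 1, 2 and 4, and -2.65 and -1.53 in wild-type cells on slides 2 and 3. The changes without slide 4 were -2.27 in knockout cells (limma adjusted p = 0.00469) and -1.79 in wild-type cells (limma adjusted p = 0.0129). Leaving out knockout cocultured 1 ended the knockout call (-2.05, limma adjusted p = 0.0526).

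Klf1 encodes the erythroid Krüppel-like factor of the beta-globin gene, and its signal was near background everywhere. Its probe, at chr8:87428881-87428940 (mm9), was well above background on 3 arrays, knockout cocultured 2 and knockout BMMC 1 and 4, and on 0 wild-type arrays. Its level was -4.57, -3.98 and -5.57 on knockout cocultured arrays and -6.44, -6.42, -6.35 and -5.51 on wild-type cocultured arrays. On BMMC arrays it was -2.35, -4.80, -5.02 and -3.74 in knockout cells and -4.06, -4.29 and -3.99 in wild-type cells. The wild-type groups did not overlap, and the knockout groups did. The wild-type comparison passed (limma adjusted p = 0.03), but no wild-type array was well above background, so no fold is given. With background correction by normexp the adjusted p was 0.591 in limma. The knockout comparison did not pass (limma adjusted p = 0.426).

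**Figure D3:**
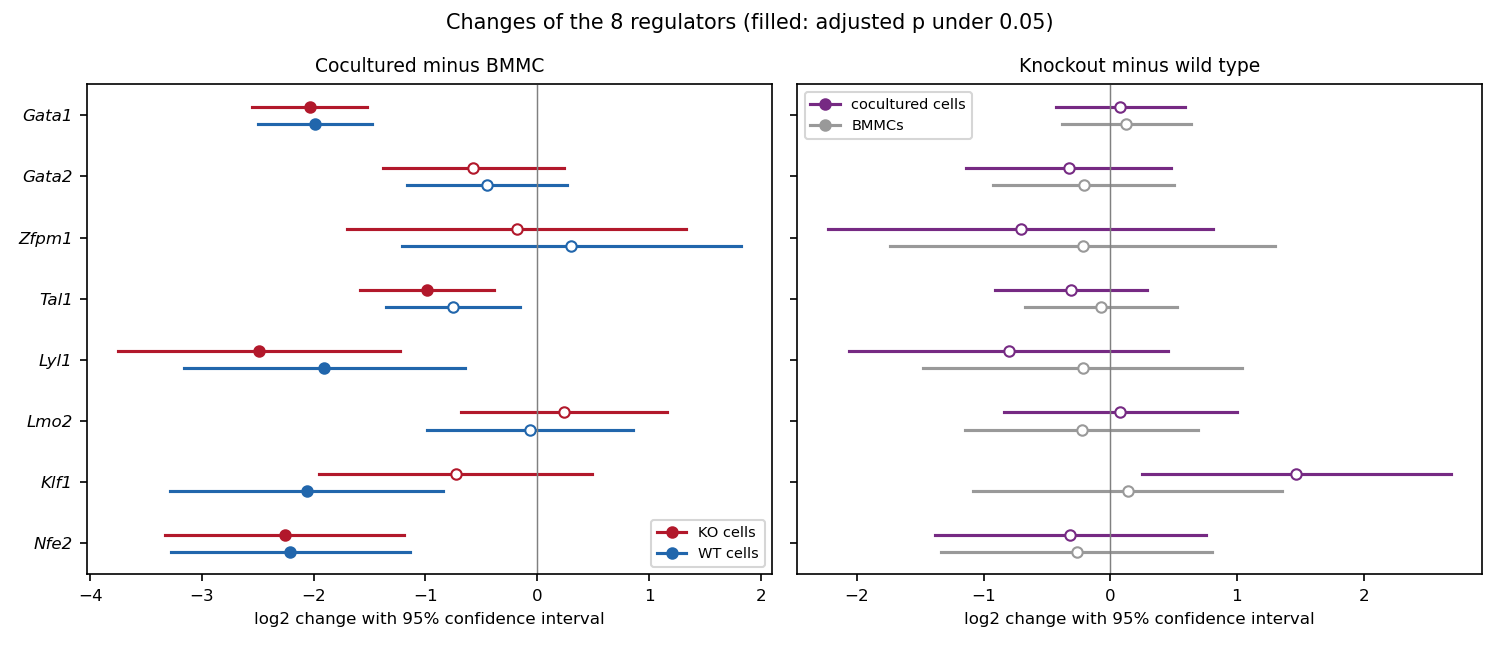
Log2 change of each of the 8 regulators with its 95% confidence interval, for cocultured minus BMMC in knockout and wild-type cells (left) and for knockout minus wild-type in cocultured cells and BMMCs (right). Filled points passed at an adjusted p under 0.05. Gata1, Lyl1 and Nfe2 are filled in both genotypes on the left, and no point is filled on the right; the Klf1 points rest on signals near background.

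Across the coculture comparisons, the groups did not overlap for 4 of the 8 genes in knockout cells (Gata1, Tal1, Lyl1 and Nfe2) and for 4 in wild-type cells (Gata1, Lyl1, Klf1 and Nfe2), all lower after coculture. Over all genes the share with no overlap and a lower level was 12% in knockout cells and 14.9% in wild-type cells. Without the slide 4 arrays, 5 of the 8 genes passed as lower (Gata1, Zfpm1, Tal1, Lyl1 and Nfe2) and 1 as higher (Lmo2) in knockout cells, where 12.2% of all genes were lower and 19.3% higher. In wild-type cells 3 passed as lower (Gata1, Klf1 and Nfe2) and 1 as higher (Zfpm1), where 14.4% of all genes were lower and 9.62% higher. Klf1 was well above background on 0 wild-type arrays, so its place in these wild-type counts rests on background signal.

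Genotype made no difference that passed. Before coculture, 0 of the 8 genes passed between knockout and wild-type BMMCs, and 0% of all genes did. At an unadjusted p under 0.05 the counts were 0 of the 8 genes and 169 of all genes (1.06%). Gata1 differed by 0.13 (95% interval -0.38 to 0.64) and Gata2 by -0.21 (95% interval -0.92 to 0.50), knockout minus wild-type. Zfpm1, Tal1, Lyl1, Lmo2 and Nfe2 differed by -0.27 (Nfe2) to -0.07 (Tal1), and Klf1, well above background on 2 knockout and 0 wild-type BMMC arrays, is given no size. On the other Gata2 probe every knockout BMMC array lay below every wild-type BMMC array, by 0.19 on average and without passing (limma adjusted p = 1), where 3.14% of all genes showed the same lack of overlap.

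After coculture, again 0 of the 8 genes and 0% of all genes passed between knockout and wild-type cells. At an unadjusted p under 0.05, 607 of all genes (3.79%) and 1 of the 8, Klf1, were counted. For Klf1 (limma adjusted p = 0.796) only 1 of the 7 arrays was well above background, so no size is given. Gata1 differed by 0.08 (95% interval -0.43 to 0.59). Lyl1 differed by -0.80 (95% interval -2.06 to 0.46, limma adjusted p = 0.796) and Zfpm1 by -0.71 (95% interval -2.22 to 0.81, limma adjusted p = 0.815), so that larger differences in either gene lie within the intervals.

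The change with coculture was then compared between genotypes. The difference was -0.05 (95% interval -0.77 to 0.68) for Gata1, -0.58 (95% interval -2.36 to 1.20) for Lyl1 and -0.24 (95% interval -1.09 to 0.61) for Tal1. None of the 8 genes passed in limma, and 0% of all genes did. At an unadjusted p under 0.05 the counts were 0 of the 8 and 131 of all genes (0.818%). The Tal1 call in knockout cells only is thus not shown to be a difference between the genotypes.

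These genotype values changed without the slide 4 arrays. Between knockout and wild-type cocultured cells Zfpm1 then differed by -2.21 (limma adjusted p = 0.00194) and Lmo2 by 0.86 (limma adjusted p = 0.0387), against a background of 25.9% of genes passing. In the comparison of changes Zfpm1 passed at -1.996 (limma adjusted p = 0.0165), with 13.3% of genes passing. Within slides, knockout minus wild-type cocultured cells was -2.59 on slide 2 and 2.92 on slide 4 for Zfpm1, 1.32 and -1.62 for Lmo2, and 0.68 and -0.45 for Gata1. Only these 2 slides held cocultured cells of both genotypes, and their signs were opposite for each of these 3 genes. The fibroblast sum was 25.8 on the knockout and 117 on the wild-type array of slide 2, and 62.2 and 16.6 on those of slide 4, so that its sign by slide was that of Zfpm1 and opposite to that of Lmo2 and Gata1. With 2 slides of opposite sign, a gene can only match or oppose the sum. The part of fibroblast RNA in these differences was not tested.

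The genes around the 8 regulators were described from lists. Among 14 tested of 19 E proteins, LDB1 adaptors and Id inhibitors, 1 rose and 1 fell in knockout cells and 2 rose and 1 fell in wild-type cells, where 14.3% and 12.9% of all genes were called in either direction. Cbfa2t3, which encodes ETO2, a corepressor of the TAL1 complex, was at 0.25, 1.73 and 0.62 on knockout cocultured arrays and at 0.97, 1.71, -0.35 and 2.04 on wild-type cocultured arrays. It was at 4.20, 4.08, 3.88 and 3.30 on knockout BMMC arrays and at 4.18, 3.83 and 4.50 on wild-type BMMC arrays. Its groups did not overlap in either genotype, and it fell by 3.00 in knockout cells (limma adjusted p = 0.00274) and by 3.08 in wild-type cells (limma adjusted p = 0.00211) on the log2 scale. Id1, which binds E proteins and keeps them off DNA, rose by 2.29 in knockout cells (limma adjusted p = 0.0284) and by 2.04 in wild-type cells (limma adjusted p = 0.0469). Runx1t1, a relative of Cbfa2t3, passed in wild-type cells at 1.81 (limma adjusted p = 0.0357) and was at -0.58 in knockout cells (limma adjusted p = 0.495). The list's median change was -0.36 in knockout cells and -0.18 in wild-type cells.

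Of 8 NF-E2 partners and relatives, 5 rose in knockout cells and 3 in wild-type cells, and 0 fell, where 7.78% and 6.02% of all genes rose. Mafk, a small MAF partner of NFE2, was at 2.59, 2.26 and 2.41 on knockout cocultured arrays and at 2.10, 1.66, 2.33 and 2.03 on wild-type cocultured arrays. It was at 0.47, 0.18, 0.37 and 0.85 on knockout BMMC arrays and at 0.77, 0.32 and 0.77 on wild-type BMMC arrays. Cocultured and BMMC arrays did not overlap, and Mafk rose by 1.95 (limma adjusted p = 0.000348) and 1.41 (limma adjusted p = 0.00232) in knockout and wild-type cells. Maff, another small MAF gene, rose by 4.86 (limma adjusted p = 0.00583) in knockout cells and 3.52 (limma adjusted p = 0.0285) in wild-type cells. Mafg, the remaining small MAF gene of the list, passed in neither genotype, at 0.63 in knockout cells (limma adjusted p = 0.205) and 0.31 in wild-type cells (limma adjusted p = 0.611).

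Bach2, which encodes a repressor that pairs with small MAF proteins, rose by 2.19 in knockout cells (limma adjusted p = 0.0253) and by 3.27 in wild-type cells (limma adjusted p = 0.00276). Nfe2l1 and Bach1 passed in knockout cells alone, Nfe2l1 at 0.97 (limma adjusted p = 0.0388) against 0.62 in wild-type cells (limma adjusted p = 0.18). Bach1, named after its value was seen, was at 1.30 (limma adjusted p = 0.0495) against 0.97 (limma adjusted p = 0.149). The median change of this list was 1.14 in knockout and 0.97 in wild-type cells. With slide 4 left out, 4 of the 8 rose in knockout cells and 3 in wild-type cells, with 19.3% and 9.62% of all genes rising.

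**Figure D4:**
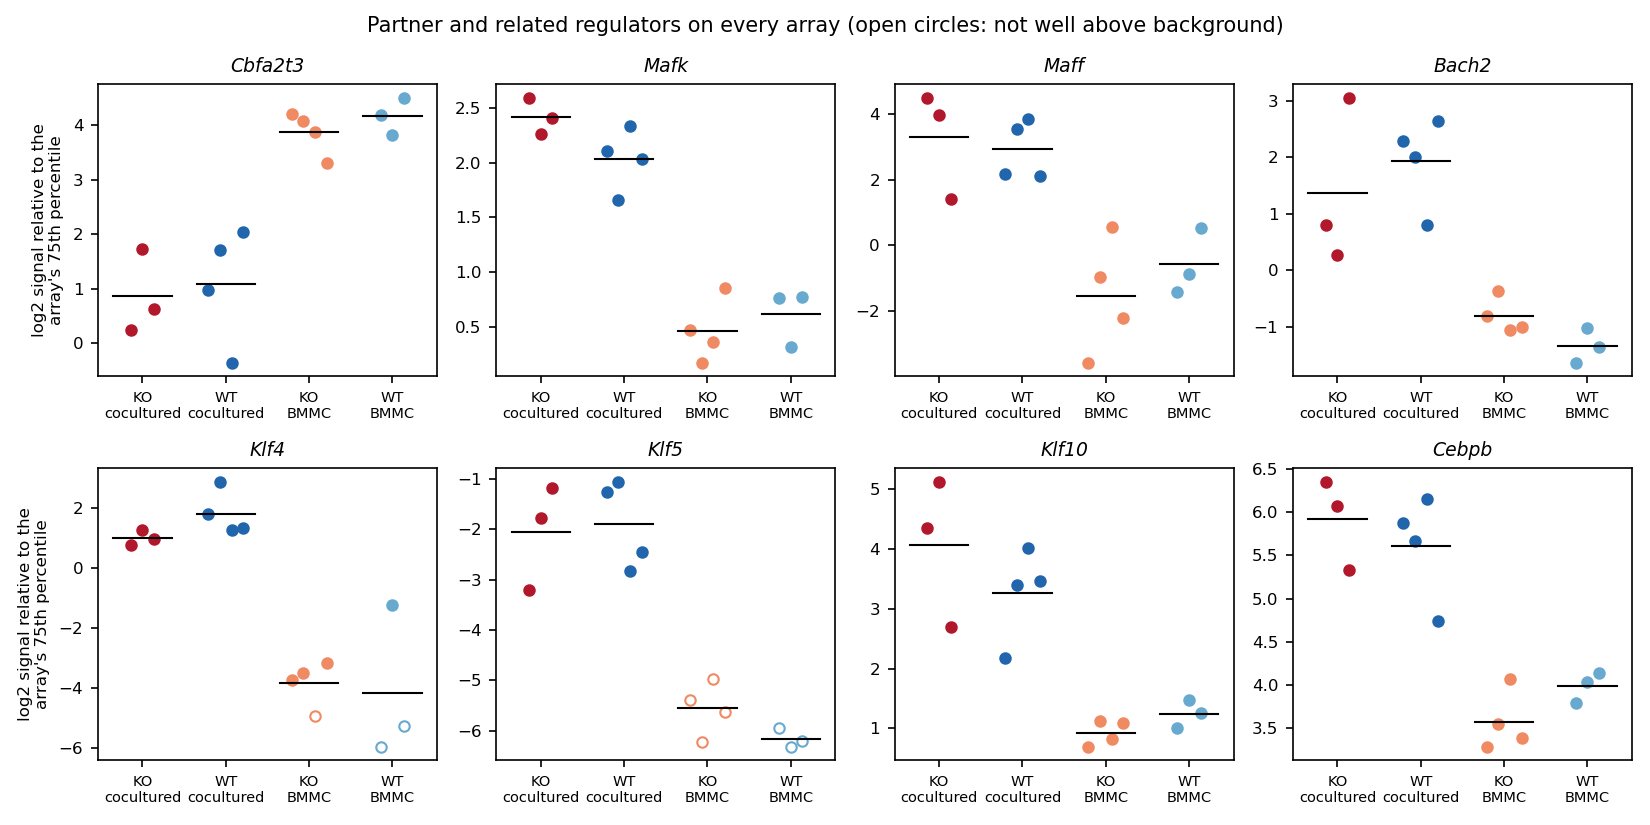
Levels of 8 partner and related regulators on every array (log2 signal relative to the array's 75th percentile), with knockout cocultured, wild-type cocultured, knockout BMMC and wild-type BMMC arrays from left to right, group means as bars and open circles where the probe was not well above background. Cbfa2t3 is lower on every cocultured array than on any BMMC array, and the other 7 genes are higher, with Klf5 not well above background on any BMMC array.

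Of 12 tested of 15 KLF genes other than Klf1, 4 rose in knockout cells and 3 in wild-type cells, and 0 fell, where 7.78% and 6.02% of all genes rose. Klf4, a regulator of epithelial and monocyte cells, well above background on all 7 cocultured, 3 of 4 knockout BMMC and 1 of 3 wild-type BMMC arrays, rose by 4.83 (limma adjusted p = 0.00392) in knockout cells and 5.97 (limma adjusted p = 0.000885) in wild-type cells. With 1 wild-type BMMC array above background, that size rests mostly on signals near background. Klf5 was well above background on all 7 cocultured and on 0 BMMC arrays, at least 3.81-fold higher in knockout cells (limma adjusted p = 0.0012) and at least 4.26-fold in wild-type cells (limma adjusted p = 0.000238). These bounds use, on each BMMC array, the weakest signal that was still well above background. Klf10, a gene induced by transforming growth factor beta, rose by 3.13 in knockout cells (limma adjusted p = 0.00195) and 2.03 in wild-type cells (limma adjusted p = 0.0202). Klf9 passed in knockout cells at 1.41 (limma adjusted p = 0.036) and was at 1.08 in wild-type cells (limma adjusted p = 0.103). The summed fibroblast marker level was higher on every cocultured array, as given above, and its part in the rises of MAF, BACH and KLF genes was not tested.

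The 26 corepressors and coactivators of GATA1 and FOG1 include the NuRD subunits that bind FOG1 and the CBP and p300 acetyltransferases. Of these, 0 passed in limma in either genotype, where 14.3% of all genes passed in knockout and 12.9% in wild-type cells. At an unadjusted p under 0.05 the counts were 4 in knockout and 1 in wild-type cells. The share of all genes at that threshold is not given for coculture. It is at least the 14.3% and 12.9% that passed after adjustment, so these counts are not read as a result about the list. Nearest to passing were Brd3 at -1.01 (limma adjusted p = 0.0588) and Gatad2a at 0.75 (limma adjusted p = 0.0795) in knockout cells, and Zbtb7a at 0.57 (limma adjusted p = 0.0924) and Tacc3 at 0.51 (limma adjusted p = 0.251) in wild-type cells. Gfi1b, a repressor that partners GATA1 and was named after its value was seen, was at -1.50 in knockout cells (limma adjusted p = 0.241), with no overlap of the groups, and at -0.71 in wild-type cells (limma adjusted p = 0.655). Of the GATA and FOG relatives, 3 of 6 were tested and 0 passed in limma, also at an unadjusted p under 0.05. Trps1 was at -0.56 (limma adjusted p = 0.278) in knockout cells and at -0.32 (limma adjusted p = 0.611) in wild-type cells. Gata6 was well above background on 1 of 3 knockout and 3 of 4 wild-type cocultured arrays, against 0 of 4 knockout and 1 of 3 wild-type BMMC arrays, so no size is given (limma adjusted p = 0.822 and 0.2 in knockout and wild-type cells).

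Of 15 tested of 17 other haematopoietic regulators, 1 rose and 1 fell in knockout cells, and 1 rose and 2 fell in wild-type cells, against the same 14.3% and 12.9% over all genes. Cebpb, a leucine zipper factor of myeloid cells, rose by 2.35 (limma adjusted p = 0.00124) in knockout cells and 1.62 (limma adjusted p = 0.00934) in wild-type cells. Stat5b, which carries signals from IL-3 and Kit, fell by 1.12 (limma adjusted p = 0.0232) in knockout cells and by 0.95 (limma adjusted p = 0.0486) in wild-type cells. Ikzf2, which encodes Helios, fell by 1.84 in wild-type cells (limma adjusted p = 0.00539) and was at -1.10 in knockout cells (limma adjusted p = 0.0608).

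Of 12 mast cell genes known to carry GATA elements, 3 rose in knockout cells and 2 in wild-type cells, and 0 fell, where 7.78% and 6.02% of all genes rose. Hdc, the enzyme that makes histamine, rose by 3.74 (limma adjusted p = 0.000571) in knockout cells and 3.24 (limma adjusted p = 0.00117) in wild-type cells. Tpsab1, a tryptase, rose by 7.65 on the log2 scale in knockout cells (limma adjusted p = 0.000892) and was at least 337-fold higher in wild-type cells (limma adjusted p = 6.3e-05), where no BMMC array was well above background. The knockout BMMC arrays ranged from -6.45 to -0.07, with 3 of 4 well above background, so the 7.65 rests partly on signal near background. Tpsb2, another tryptase, rose by 1.96 in knockout cells (limma adjusted p = 0.00535) and was at 0.93 in wild-type cells (limma adjusted p = 0.135). The other 9 genes of the list, Kit, Fcer1a, Ms4a2 and Cpa3 among them, passed in neither genotype. The list's median change was 0.09 in knockout and -0.34 in wild-type cells, and without the slide 4 arrays 4 of 11 rose and 0 fell in knockout cells and 2 rose and 1 fell in wild-type cells, with 19.3% and 9.62% of all genes rising and 12.2% and 14.4% falling.

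GATA1 also controls erythroid and megakaryocyte genes, whose members named here were picked after their values were seen. Of 10 erythroid genes tested, 1 rose in knockout cells and 0 passed in wild-type cells in limma, where 3 had an unadjusted p under 0.05. Add2, a membrane skeleton protein, was at least 1.28-fold higher in knockout cells (limma adjusted p = 0.0122), with 2 of 3 cocultured and 0 of 4 BMMC arrays well above background. Hba-a1, an alpha globin gene, was at -1.59 in knockout cells (limma adjusted p = 0.311) and -2.91 in wild-type cells (limma adjusted p = 0.0728). Of 8 haem synthesis genes 0 passed in limma, also at an unadjusted p under 0.05, and the list's median change was 0.04 in knockout and -0.02 in wild-type cells. Of 12 tested of 17 megakaryocyte genes, 1 rose and 2 fell in knockout cells, and 0 passed in wild-type cells in limma, where 5 had an unadjusted p under 0.05. Over all genes 7.78% rose and 6.5% fell in knockout cells, and 12.9% passed in wild-type cells. The share of all genes at an unadjusted p under 0.05 is not given for coculture. In wild-type cells it is at least the 12.9% that passed after adjustment, so the unadjusted counts are not read as a result about these lists. Gp1ba, a platelet receptor subunit, fell by 1.28 in knockout cells (limma adjusted p = 0.0134) and was at -0.94 in wild-type cells (limma adjusted p = 0.0541). Nbeal2, needed for platelet alpha granules, fell by 1.73 (limma adjusted p = 0.00589) and was at -0.97 in wild-type cells (limma adjusted p = 0.0826), while Rab27b, a granule transport gene, rose by 1.24 in knockout cells (limma adjusted p = 0.0269).

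Over all 14 arrays, 0 genes of these lists passed in limma between genotypes, in BMMCs, in cocultured cells or in the comparison of changes, as given above for all genes. Without the slide 4 arrays several counts moved. In knockout cells 5 of the 8 haem synthesis genes then rose with coculture, and 1 rose and 2 fell among the 26 cofactors, where 19.3% of all genes rose and 12.2% fell. The E proteins and their adaptors then gave 1 rise and 3 falls of 13 tested in knockout cells, and the other haematopoietic regulators 1 rise and 4 falls in knockout cells and 2 rises and 4 falls in wild-type cells. Erythroid genes gave 0 calls in knockout cells and 1 rise and 2 falls of 9 tested in wild-type cells. Over all genes 9.62% then rose and 14.4% fell in wild-type cells. Between knockout and wild-type cocultured cells, 0 were higher and 4 lower among E proteins and adaptors and 1 higher and 4 lower among cofactors, where 16.4% of all genes were higher and 9.49% lower. In the same comparison 0 of 18 fibroblast markers were higher and 15 lower, and 4 of 8 haem synthesis genes were higher and 0 lower. The part of fibroblast RNA in these counts was not tested.

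Likeness to Gata1 was measured as the root mean square difference between centred log2 levels over the 14 arrays, in 10836 other genes well above background on all arrays. The median over these genes was 1.12. The 5 most alike were BB425408 (0.231), Rexo5 (0.259), Brat1 (0.269), Ptpn2 (0.287) and Rsc1a1 (0.293). Ptpn2, a tyrosine phosphatase, averaged 4.77 and 4.63 on knockout and wild-type cocultured arrays, against 6.29 and 6.65 on knockout and wild-type BMMC arrays. Of the 8 regulators, Nfe2 came nearest, at 0.630 and rank 485. For Gata2, over 13 arrays and 10837 genes with a median of 0.629, the most alike were Zcchc7 (0.109), Sp3os (0.132), Trmt44 (0.160), Ehmt2 (0.160) and Rhot2 (0.185). Tal1 was at 0.269 and rank 71. These values are a description over arrays that share slides and scaling.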

How the data were processed

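RNA was measured on 14 single-colour Agilent mouse arrays. The labels give 450 ng of RNA per array. The deposited intensity of each spot came from Agilent Feature Extraction 9.5.1.1, per the file headers. The authors' deposited normalized intensity values, equal to the raw ones minus a constant per array within 1 unit for 99.6% to 99.9% of probes, were used as an alternative. From log2 of the processed signal each array's 75th percentile was subtracted, which removes a shift common to most genes. Control spots and outlier spots (74 to 326 per array) were left out, and spots of 1 probe were averaged. A probe was kept if at least 3 arrays had it well above background and each group had at least 2 values. This left 23584 probes, and each of 16012 genes was represented by its brightest probe on average. Of 41174 probes, 24844 were named by accession, 6045 by symbol and 1810 by synonym in RefSeq's gene list, and 8475 kept the file's name. Probe positions are those of the files on mm9, for which no annotation was used here, so exon or UTR is not given.

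A single fit of the 4 groups with 5 contrasts was made with limma 3.58.1 in R 4.3.3 with data.table (version 1.17.8). Tests were two-sided with Benjamini-Hochberg adjustment over all genes, and "passed", "rose" and "fell" mean an adjusted p under 0.05. The steps were tested on simulated data. Precision is limited by how many arrays a group has. The 8 genes, the gene lists and the motifs were chosen with earlier results of these data known. The rule named the 8 genes with every probe, up to 4 passing genes of each regulator list with the lowest adjusted p (or 2 where none passed), the 5 genes most like Gata1 and Gata2, and Pla2g3. Knockout and wild-type BMMC arrays of equal number shifted together around their group means (r = 0.20, 0.50 and 0.49 across genes for numbers 1 to 3), and each pair also shared a slide, so number and slide cannot be told apart there. Alternatives covered background correction, scaling, filters, slide and replicate blocks, the groups fitted and arrays left out. The lists without the slide 4 arrays were added after seeing the data.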

Additional observations from a re-analysis of the deposited data

Results flagged for a closer look

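Of 18 groups of 4 arrays examined over the probes of the 8 regulators, 1 held an array far from the others by Dixon's test, and chance marks about 1 in 20. It was Klf1 on wild-type cocultured 4, at -5.51 on the log2 scale, above -6.44, -6.42 and -6.35 on wild-type cocultured 1, 2 and 3, none of them well above background.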

How the results depend on the processing

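Gata1 kept its direction and its call in both genotypes in all 14 fits that left out 1 array and under all 12 other settings, with log2 changes of -3.15 to -1.84 in knockout cells and -2.16 to -1.61 in wild-type cells over these settings. The count of the 8 genes that passed with coculture was 4 in each genotype. In wild-type cells it was 2 with quantile normalization, 1 with the authors' normalized values and 2 when only the groups compared were fitted, and it ran from 2 to 5 without 1 array, at 2 without any of the 3 wild-type BMMC arrays, knockout BMMC 1 or 4, wild-type cocultured 1 or knockout cocultured 2. In knockout cells it was 3 to 6 over the other settings and 1 to 5 without 1 array, the 1 being without knockout cocultured 1. Without the slide 4 arrays 2 of the 8 genes passed between cocultured genotypes and 1 in the comparison of changes, which were 0 over all arrays, and the cause was not tested. With the replicate number as a block 3 genes passed in each genotype with coculture, Lyl1 being lost in wild-type cells (adjusted p = 0.0515) and Tal1 in knockout cells (adjusted p = 0.107). Same-numbered arrays did not deviate together across coculture (r = -0.06 to 0.12). Of these pairs, knockout 1 and knockout 2 also shared a slide, and the others shared only a number. In the BMMC comparison the block left 0 of the 8 genes passing. Nfe2 lost its call with the authors' values in both genotypes (adjusted p = 0.0712 in knockout and 0.152 in wild-type cells) and, in wild-type cells, when only the groups compared were fitted (0.0584).

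Over all genes, 2286 passed with coculture in knockout cells and 2064 in wild-type cells. The knockout count was 893 with normexp, 1392 with median scaling, 1356 with no filter, 635 with the authors' values, 1231 with the replicate block and 4918 without the slide 4 arrays. The wild-type count was 877 with normexp, 856 with the authors' values and 3754 without the slide 4 arrays. Leaving out 1 array gave 1076 to 3157 and 1133 to 2715. The genotype counts, 0 over all arrays, reached 2 in BMMCs without knockout BMMC 3. Without the slide 4 arrays, 4044 genes passed between cocultured genotypes and 2081 in the comparison of changes. Median scaling moved the median of all genes to 0.14 in knockout and -0.20 in wild-type cells. Klf1, near background, is limited by signal, and its wild-type call was lost with normexp, quantile normalization, the authors' values and the slide block.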
